A study of Mus musculus with 10 samples.

Results

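Vps34, the class III phosphatidylinositol 3-kinase encoded by Pik3c3, was deleted in regulatory T cells (Tregs), and the chromatin described here is the set of 535 ATAC-seq peaks that were more open without Vps34 in spleen but not in lung. These regions were chosen by their own values among the 94486 peaks on chromosomes 1 to 19 of a table of 97385. Counts were scaled to counts per 1000000 counts (CPM) of each library. In spleen, all 4 Vps34-deficient libraries had to lie above both controls, with a Vps34-deficient mean of at least 3 CPM and at least 1.5 times the control mean. In lung, the Vps34-deficient mean could be at most 1.15 times the control mean. The spleen criteria alone held for 2623 peaks. Of these, 697 met like criteria in lung (both Vps34-deficient libraries above both controls, 1.5 times and 3 CPM) and served as peaks opening in both tissues. The other comparison set held the 29160 peaks of at least 3 CPM in Vps34-deficient spleen whose spleen ratio lay within 15% of 1. These were far more open than the members, at medians of 12.1 to 12.7 CPM in the spleen libraries, so they do not match the members in level.

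Cells were sorted as CD4+Foxp3-YFP+TCRb+ Tregs from mice aged 10 days. Every mouse carried a Cre recombinase driven by Foxp3, so that deletion is restricted to cells that have expressed Foxp3. The control groups kept an intact Pik3c3 allele (Foxp3Cre with Pik3c3 +/+ or +/fl), and the Vps34-deficient groups were Foxp3Cre Pik3c3 fl/fl. Per the labels there were 2 control and 4 Vps34-deficient spleen libraries and 2 lung libraries of each genotype. The methods text states these spleen counts in reverse, as 4 controls and 2 Vps34-deficient, and the groups used here are those of the labels. The study counts its groups in mice, and the labels do not tie libraries to animals. Every group held a library with high and a library with low chromosome Y signal, so its libraries did not all come from the same animal. The promoter peak of Pik3c3 held 52.5 to 67.3 CPM in every library, and it does not check the deletion, since the deleted sequence was not matched to peaks.

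As background, ATAC-seq reads where the Tn5 transposase can insert adaptors, which marks promoters and enhancers whose nucleosomes have been displaced. Vps34 makes phosphatidylinositol 3-phosphate on endosomes and autophagosomes and so serves endocytic traffic and autophagy. Tregs hold immune responses in check and pass from a resting, lymphoid state to effector states that settle in tissues such as lung. Enhancers that open with T cell activation often carry binding sites for NF-kB, AP-1 and NFAT, factors that act downstream of antigen and costimulatory receptors. In bulk cells, a change in the mixture of Treg states and a change in accessibility within a state cannot be told apart.

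The sequences below come from RefSeq's GRCm38.p6 assembly, plus strand, and each is named by the nearest protein-coding gene, which is not necessarily the gene it regulates. Lower case marks sequence without a match, and capitals mark the NF-kB consensus GGNNTTTCC or the AP-1 consensus TGANTCA on either strand. The first 2 come from the 8 peaks with the widest separation of the spleen groups and are shown, whole or by their central 300 bases, as examples that hold a consensus.
Gm11060 chr2:105087018-105087232: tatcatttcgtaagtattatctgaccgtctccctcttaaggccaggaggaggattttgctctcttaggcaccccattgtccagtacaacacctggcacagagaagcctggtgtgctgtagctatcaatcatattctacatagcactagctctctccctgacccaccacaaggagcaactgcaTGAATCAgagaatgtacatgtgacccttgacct
Malsu1 chr6:49130401-49130700: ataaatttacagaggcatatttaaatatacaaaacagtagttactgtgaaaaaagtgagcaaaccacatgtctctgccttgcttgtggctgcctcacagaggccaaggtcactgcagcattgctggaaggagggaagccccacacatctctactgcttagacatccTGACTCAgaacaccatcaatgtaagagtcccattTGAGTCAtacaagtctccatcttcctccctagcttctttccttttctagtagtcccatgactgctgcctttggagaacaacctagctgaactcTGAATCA

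The following windows of 49 bases surround a consensus in the central 200 bases of members near Treg genes and Nfkb1, and of Dscam and Vipr2 from the most open members. They were picked after the values were seen, as examples of the NF-kB consensus and, at 1 Nrp1 peak, of AP-1.
Il2ra chr2:11655150-11655198: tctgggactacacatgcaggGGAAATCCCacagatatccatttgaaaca
Lrrc32 chr7:98531745-98531793: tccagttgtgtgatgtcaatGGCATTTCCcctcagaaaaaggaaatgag
Nfkb1 chr3:135640335-135640383: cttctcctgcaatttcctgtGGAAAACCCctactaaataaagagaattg
Nrp1 chr8:128464262-128464310: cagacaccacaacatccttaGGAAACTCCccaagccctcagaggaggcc
Nrp1 chr8:128351314-128351362: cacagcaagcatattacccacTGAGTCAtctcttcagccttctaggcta
Dscam chr16:97204213-97204261: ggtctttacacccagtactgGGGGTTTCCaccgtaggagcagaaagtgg
Vipr2 chr12:116140797-116140845: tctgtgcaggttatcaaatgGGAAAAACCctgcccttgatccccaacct

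Sequencing depth spanned 9405823 to 22439699 counts in peaks per library, at which the 535 members had a median of 32 to 94 counts per library. Promoter peaks of the T cell markers Cd3e, Cd3d, Cd4 and Lck and of the Treg markers Foxp3, Ikzf2 and Il2ra were open in every library, with summed levels of 96.7 to 129.6 CPM and 136.1 to 191 CPM. Markers of other cells gave 13.2 to 19.1 CPM for the B cell list, with a peak at Pax5 and none at Ms4a1 or Cd79a. The myeloid list summed to 35.0 and 36.0 CPM in control spleen against 25.2 to 28.7 in Vps34-deficient spleen, and to 38.9 and 43.6 against 25.8 and 25.4 in lung, with peaks at Cebpa and Spi1 and none at Lyz2 or Csf1r. The 3 erythroid genes summed to 22.7 and 24.5 CPM in control spleen against 25.5 to 30.1 in Vps34-deficient spleen, and to 15.95 and 16.4 against 18.8 and 24.5 in lung. The 5 genes of lung epithelium and endothelium summed to 49.6 and 50.4 CPM in control spleen against 46.1 to 48.0, and to 42.7 to 52.0 CPM in lung. Most of this sum came from Epcam and Pecam1, whose levels overlapped between tissues, and Sftpc had no peak. Every lung library was above every spleen library at Nkx2-1 (1.30 to 2.12 against 0.361 to 1.11 CPM) and at Cdh5 (1.13 to 3.39 against 0.181 to 1.07 CPM). The CD8 and NK genes summed to 1.41 to 4.23 CPM over all libraries. The part of these lists in the spleen differences was not tested. Replicate 2 of the lung controls stood apart from the other lung libraries in the dependence of signal on GC content. Its log2 level at 60% GC minus that at 40% GC was 0.057, against -0.235, -0.181 and -0.259 in the other 3 lung libraries and -0.015 to 0.13 in spleen. Membership and the consensus shares are also given without each lung control.

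The members are modestly accessible regions. Their median level was 2.67 and 2.55 CPM in the control spleen libraries and 4.59, 4.28, 4.24 and 4.88 CPM in the Vps34-deficient ones, the separation that the selection imposed. In lung the median was 4.04 and 3.95 CPM in controls and 3.898 and 3.387 CPM without Vps34. The spleen ratio of Vps34-deficient to control mean had a median of 1.70 and ran from 1.5 to 7.53, and 85 members reached 2. The lung ratio had a median of 0.987 and ran from 0.366 to 1.15. It was above 1 at 254 members, and both Vps34-deficient lung libraries lay below both controls at 71 members (13.3%, against 22.2% of all peaks on chromosomes 1 to 19) and above both at 5 (0.935%, against 23.7%), an order that the lung limit restricts. Only 35 members had a Vps34-deficient spleen mean of at least 10 CPM, and 314 were under 5 CPM. Among the 4 Vps34-deficient spleen libraries, replicate 4 was the highest at 195 members, replicate 1 at 172, replicate 2 at 95 and replicate 3 at 73.

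**Figure D1:**
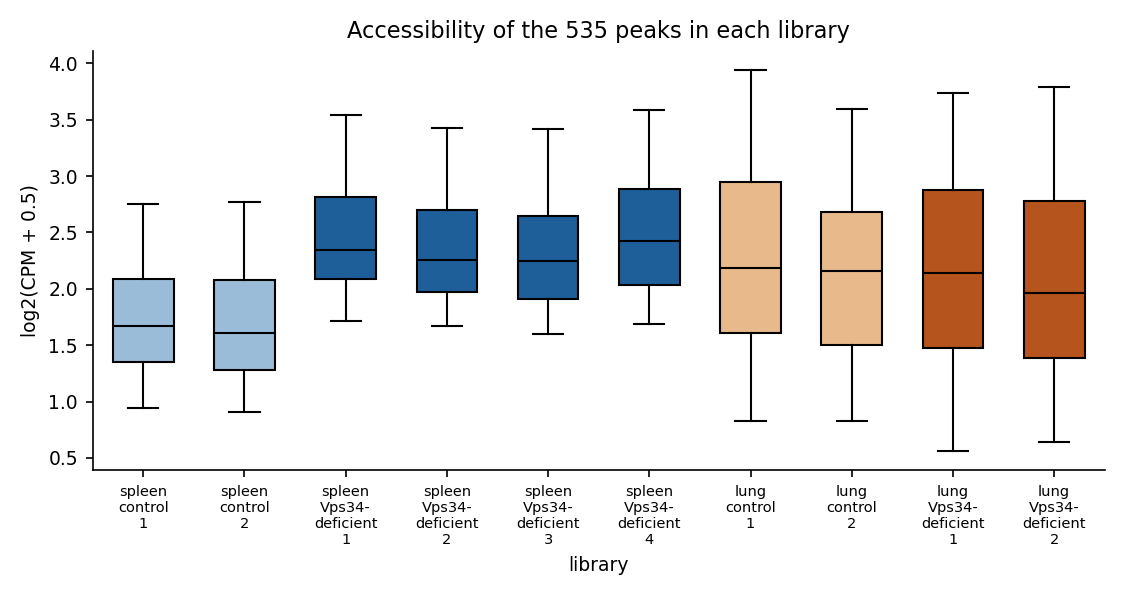
Accessibility of the 535 peaks in the 10 libraries, as log2(CPM + 0.5). Boxes span the quartiles with the median as a line and whiskers reach the 5th and 95th percentiles. The Vps34-deficient spleen medians (4.24 to 4.88 CPM) sit above the spleen controls (2.67 and 2.55 CPM) by selection, while the lung boxes are wider and overlap between genotypes.

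Because the same contrasts chose the peaks, model calls on them are given as a description only. With edgeR's quasi-likelihood test and Benjamini-Hochberg adjustment over 97109 peaks, 35 members passed an adjusted p of 0.05 and a log2 fold change of 0.5 as higher in Vps34-deficient spleen, where 0.441% of all tested peaks did. This count moved with most libraries and was 0 without spleen control 2, 2 without spleen control 1, 10 to 12 without replicate 1, 2 or 4 of Vps34-deficient spleen, 88 and 94 without lung control 1 or 2 and 3 with a replicate block. In lung, 2 members were called lower, against 3.74% of all peaks. The interaction of tissue and genotype was called at 0 members and 0% of all peaks. At an unadjusted p under 0.05 it took in 222 members (41.5%, against 7.27% of all peaks), an excess that the selection of a spleen increase without a lung increase builds in, and DESeq2 called 2. Every member was tested, and the median log2 fold change without Vps34 was 0.76 in spleen and -0.04 in lung, against 0.05 and 0.02 over all peaks.

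Values run without a break across each threshold. The member with the lowest spleen ratio was nearest to Fbxo32, a muscle ubiquitin ligase gene, at 1.5, and the peak just outside stood at 1.4995. At the level threshold, the closest peaks were an Actl6b peak at 3.0013 CPM inside and a Fam110b peak at 2.9913 CPM outside. The lung limit fell between a Myocd peak at 1.1499 and an Slc2a13 peak at 1.1501. For the order of the spleen libraries, the lowest Vps34-deficient value over the highest control was 1.0022 at a Fam171a2 peak and 0.99903 at a Mef2d peak. Peaks that failed a single criterion numbered 1963 for the spleen ratio, 1895 for the level, 2088 for the lung limit and 111 for the order of the libraries.

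The 8 members whose spleen groups lay farthest apart, by the lowest Vps34-deficient over the highest control library among members with a control mean of at least 1 CPM, were all more than 1 kb from a protein-coding start, and 7 of them are described here. The widest gap among them was at a peak (chr3:19421433-19421878) 86.9 kb upstream of Dnajc5b, which encodes a cysteine-string co-chaperone. It held 1.78 and 1.52 CPM in control spleen, 4.45, 4.04, 5.06 and 3.88 in Vps34-deficient spleen, 5.32 and 3.88 in control lung and 4.87 and 4.45 in Vps34-deficient lung. Its lowest Vps34-deficient spleen value was 2.17 times its highest spleen control, and the lung libraries of both genotypes stood at the level of Vps34-deficient spleen. The peak 4.89 kb upstream of Gm11060, a predicted gene (chr2:105087018-105087232), held 1.25 and 1.52 CPM in control spleen, 4.73, 3.18, 3.16 and 5.31 in Vps34-deficient spleen, 10.2 and 4.94 in control lung and 7.15 and 6.35 in Vps34-deficient lung. All 4 lung libraries were above both spleen controls, and edgeR gave a lung minus spleen log2 difference of 1.39 (adjusted p = 4.29e-05). The peak 51.1 kb upstream of Otogl, more open in lung by 1.25 on the log2 scale, held 3.57 and 3.86 CPM in control spleen, 10.99, 9.66, 7.67 and 8.47 in Vps34-deficient spleen, 19.1 and 10.2 in control lung and 14.9 and 17.99 in Vps34-deficient lung.

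The remaining 4 peaks described from this group differed in their lung levels. A region 6.01 kb upstream of Gramd1b, which encodes a sterol transporter of the endoplasmic reticulum, held 1.87 and 0.827 CPM in control spleen, 4.17, 4.04, 3.701 and 3.59 in Vps34-deficient spleen, 0.213 and 2.68 in control lung and 1.46 and 1.27 in Vps34-deficient lung. Its spleen controls differed from each other by more than their own lower value, and the lung controls spanned 0.213 to 2.68 CPM. The peak upstream of Ermn, a gene of the myelin cytoskeleton, held 1.43 and 1.79 CPM in control spleen, 3.34, 3.43, 3.79 and 3.88 in Vps34-deficient spleen, 0.851 and 1.41 in control lung and 1.299 and 1.06 in Vps34-deficient lung. All 4 lung libraries lay below both spleen controls, with a lung minus spleen log2 difference of -1.16. Members had to reach 3 CPM in Vps34-deficient spleen only, so a lower level in lung is favoured by the choice, and such differences are given here as a description. A peak 56.8 kb downstream of the start of Malsu1, a mitochondrial ribosome assembly gene, ran against the spleen in lung, with 1.78 and 1.31 CPM in control spleen, 4.59, 3.303, 4.51 and 4.31 in Vps34-deficient spleen, 3.19 and 3.81 in control lung and 2.11 and 1.69 in Vps34-deficient lung. There both Vps34-deficient lung libraries fell under both lung controls. The peak upstream of Nup160, a nuclear pore gene, held 1.52 and 1.38 CPM in control spleen, 3.199, 4.04, 2.798 and 2.87 in Vps34-deficient spleen, 4.89 and 1.55 in control lung and 3.57 and 2.33 in Vps34-deficient lung, and its lung controls lay on either side of the Vps34-deficient lung values.

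The 6 most open members had spleen ratios of 1.51 to 2.04, with 1 exception. The peak over a coding exon of Ccr7 (chr11:99144499-99146085), the receptor that guides resting T cells into lymph nodes, held 7.75 and 8.403 CPM in control spleen, 14.3, 12.8, 13.2 and 203 in Vps34-deficient spleen, 8.29 and 24.3 in control lung and 14.6 and 13.8 in Vps34-deficient lung. Replicate 4 of Vps34-deficient spleen was 14.2 times the next library of its group (2830 counts), whereas at the other Ccr7-nearest peaks of at least 3 CPM it was at most 1.74 times. Without replicate 4 the spleen ratio was 1.67 in place of 7.53, so membership does not rest on it. It does rest on lung control 2, without which the lung ratio was 1.71 and the peak was no longer a member. The sum over members in that library was 3236 CPM with this peak and 3033 CPM without, against 2661 to 2971 CPM in the other 3 and 1686 and 1645 CPM in the controls. Next came an intronic peak of Hsd11b1, which encodes a glucocorticoid-activating enzyme, with 17.5 and 17.1 CPM in control spleen, 23.9, 27.95, 26.2 and 26.4 in Vps34-deficient spleen, 17.4 and 23.4 in control lung and 19.4 and 22.2 in Vps34-deficient lung.

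The peak upstream of the cell adhesion gene Dscam (chr16:97204019-97204608), whose NF-kB match is printed above, held 11.5 and 9.64 CPM in control spleen, 22.7, 21.4, 19.5 and 22.7 in Vps34-deficient spleen, 13.4 and 17.8 in control lung and 15.6 and 12.1 in Vps34-deficient lung. All 4 lung libraries fell between the spleen groups there, without overlap. In an intron of Vipr2, which encodes a receptor for vasoactive intestinal peptide, the peak held 15.3 and 12.8 CPM in control spleen, 22.95, 23.1, 16.3 and 23.8 in Vps34-deficient spleen, 14.7 and 18.2 in control lung and 13.8 and 11.2 in Vps34-deficient lung. Replicate 3 was the low library of Vps34-deficient spleen, and both Vps34-deficient lung libraries lay under both lung controls. The Zbtb1 peak, near a repressor needed for lymphocyte development, held 12.1 and 10.2 CPM in control spleen, 18.1, 19.2, 17.96 and 20.5 in Vps34-deficient spleen, 14.7 and 22.7 in control lung and 20.3 and 16.7 in Vps34-deficient lung. At Myo1g, a myosin of blood cells, the upstream peak held 9.36 and 11.9 CPM in control spleen, 15.6, 17.5, 18.9 and 20.1 in Vps34-deficient spleen, 17.7 and 26.5 in control lung and 22.1 and 12.9 in Vps34-deficient lung. Its lung controls lay within or above the range of Vps34-deficient spleen, and Vps34-deficient lung spread from 12.9 to 22.1 CPM.

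Promoters were few. A start of a protein-coding gene lay within 1 kb of 46 members (8.60%), against 17.1% of all peaks on chromosomes 1 to 19, 37.4% of the more open peaks with a spleen ratio near 1 and 4.59% of those opening in both tissues. Of the promoter members, the most open was that of Mcf2l, a guanine nucleotide exchange factor of small GTPases, with 9.45 and 8.68 CPM in control spleen, 14.5, 13.5, 14.8 and 11.9 in Vps34-deficient spleen, 9.78 and 6.77 in control lung and 6.99 and 8.04 in Vps34-deficient lung. The promoter peak of Ptprk, a receptor tyrosine phosphatase, held 6.77 and 4.96 CPM in control spleen, 12.2, 7.095, 9.12 and 7.03 in Vps34-deficient spleen, 5.74 and 8.75 in control lung and 7.797 and 8.26 in Vps34-deficient lung, and its groups were separated by only 1.04 times. Upstream of Foxp4, a forkhead factor gene, the peak held 5.17 and 5.65 CPM in control spleen, 7.93, 8.56, 8.03 and 10.9 in Vps34-deficient spleen, 9.89 and 9.596 in control lung and 11.5 and 4.66 in Vps34-deficient lung. These spleen groups do not overlap by selection, while the lung libraries of Foxp4 spread from 4.66 to 11.5 CPM within 1 genotype. The promoter of Set, a histone chaperone gene, held 5.17 and 5.51 CPM in control spleen, 8.07, 9.79, 7.04 and 8.76 in Vps34-deficient spleen, 4.25 and 5.36 in control lung and 4.39 and 4.23 in Vps34-deficient lung, and that of Lrp8, an apolipoprotein E receptor gene, 4.46 and 5.51 CPM in control spleen, 7.37, 7.71, 8.03 and 9.47 in Vps34-deficient spleen, 5.32 and 6.77 in control lung and 4.22 and 6.77 in Vps34-deficient lung. At Ugt1a10, a glucuronosyltransferase gene of a cluster with shared exons, the values were 2.85 and 4.27 CPM in control spleen, 9.74, 5.02, 5.06 and 8.33 in Vps34-deficient spleen, 0.638 and 1.98 in control lung and 1.95 and 0.847 in Vps34-deficient lung. Lung was lower than spleen there by 1.90 on the log2 scale, with all 4 lung libraries below both spleen controls.

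Members were then grouped by nearest gene in 18 gene lists, 41 of the 535 being nearest to a listed gene. Over all peaks on chromosomes 1 to 19, 0.566% were members. Among Treg identity genes, 7 of 217 peaks (3.23%) were members, at Il2ra, Ikzf2, Nrp1 and Lrrc32, and 0 of the 217 were in the set opening in both tissues, which held 0.738% of all peaks. The spleen criteria alone held for 10 of the 217 and for 2623 of the 94486 peaks. Of these, the lung limit kept 7 of the 10 and 535 of the 2623, so part of the contrast arises at the lung limit. Il2ra encodes the high-affinity interleukin 2 receptor chain CD25, on which Tregs depend for survival. Its intronic peak 12.3 kb into the gene (chr2:11655019-11655292) held 7.67 and 5.51 CPM in control spleen, 8.49, 9.297, 12.4 and 10.9 in Vps34-deficient spleen, 6.804 and 9.24 in control lung and 8.93 and 7.83 in Vps34-deficient lung. The other Il2ra member, 4.53 kb from the start, held 3.39 and 3.24 CPM in control spleen, 5.15, 6.61, 6.05 and 3.45 in Vps34-deficient spleen, 2.98 and 4.66 in control lung and 4.39 and 4.02 in Vps34-deficient lung. At the first of these the upper spleen control came within 1 CPM of the lowest Vps34-deficient library, and at the latter replicate 4 barely exceeded the controls. Lung of both genotypes lay between the spleen groups or overlapped them.

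Ikzf2 encodes Helios, a factor of thymus-derived Tregs. Its upstream peak, 59.7 kb from the start, held 3.57 and 3.86 CPM in control spleen, 6.68, 5.51, 7.76 and 5.67 in Vps34-deficient spleen, 3.402 and 6.63 in control lung and 3.898 and 2.75 in Vps34-deficient lung. An intronic Ikzf2 peak held 1.43 and 2.204 CPM in control spleen, 4.31, 3.24, 4.15 and 4.45 in Vps34-deficient spleen, 8.72 and 4.23 in control lung and 7.15 and 6.77 in Vps34-deficient lung, so that here the lung libraries exceeded the spleen controls in every case. Lrrc32 encodes GARP, which displays latent TGF-beta on the Treg surface. The peak 37.5 kb downstream of its start (chr7:98531523-98532013) held 6.91 and 6.75 CPM in control spleen, 9.18, 12.4, 9.84 and 10.2 in Vps34-deficient spleen, 7.23 and 9.17 in control lung and 6.497 and 3.39 in Vps34-deficient lung. Spleen and lung ran in opposite directions at this peak, with both Vps34-deficient lung libraries under both lung controls.

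Nrp1 encodes neuropilin-1, a surface protein of thymic Tregs. The peak 7.89 kb upstream (chr8:128351135-128351657) held 4.46 and 4.55 CPM in control spleen, 7.65, 6.12, 6.32 and 8.33 in Vps34-deficient spleen, 2.55 and 1.98 in control lung and 2.599 and 2.54 in Vps34-deficient lung. Every lung library was below both spleen controls, with a lung minus spleen log2 difference of -1.28. The intronic Nrp1 peak held 1.78 and 1.79 CPM in control spleen, 4.59, 3.06, 2.89 and 3.16 in Vps34-deficient spleen, 3.62 and 1.83 in control lung and 1.79 and 2.12 in Vps34-deficient lung. Of the 7 members at Treg identity genes, those upstream of Ikzf2 and in the Nrp1 intron stayed members whichever library was left out, and 5 to 10 peaks of the list were members when each library was left out in turn. The contrast with all peaks was smallest without lung control 2, at 2.76% of the list and 1.33% of all peaks, in place of 3.23% and 0.566%.

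**Figure D2:**
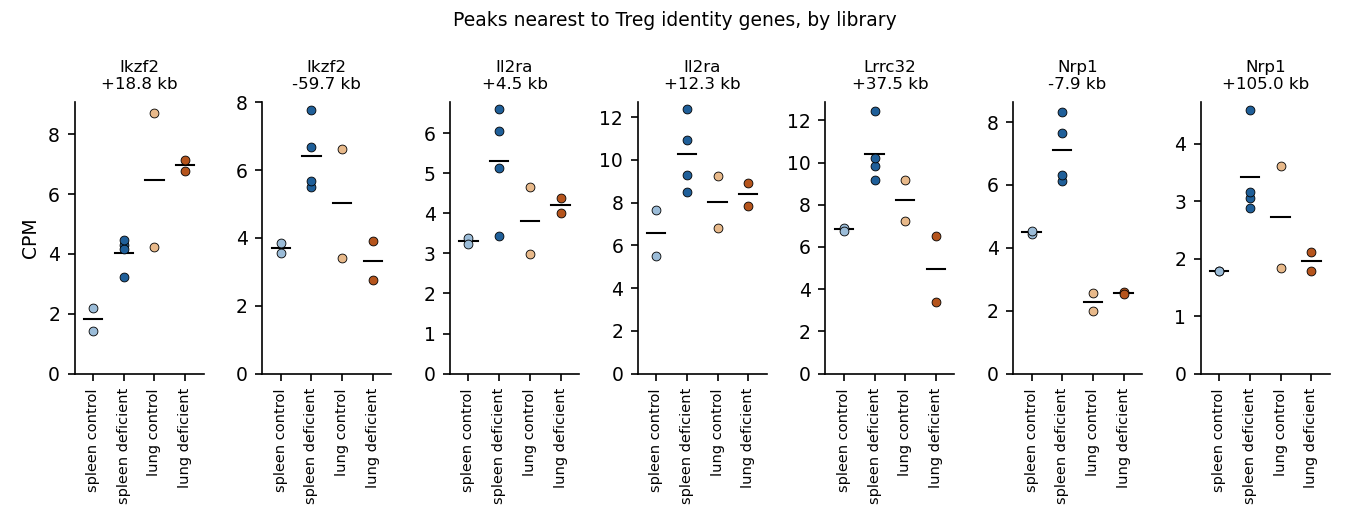
CPM of the 7 members nearest to Treg identity genes, with a point for each library and a line at the group mean. Panel titles give the gene and the distance of the peak from its start, positive downstream. Spleen groups are separated by selection, and in lung the Lrrc32 peak shows the opposite order of genotypes.

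Effector and tissue Treg genes had 8 members among 664 peaks (1.205%), at Bhlhe40, Gata3, Maf, Rora and Ctla4. The Bhlhe40 peak 1.85 kb upstream of the start, next to a gene for a transcription factor of activated and tissue T cells, held 9.67 and 9.09 CPM in control spleen, 17.8, 13.5, 13.1 and 12.2 in Vps34-deficient spleen, 6.698 and 11.9 in control lung and 6.34 and 5.82 in Vps34-deficient lung. Vps34-deficient lung was under both lung controls. The Gata3 peak 194.6 kb from the start held 4.81 and 4.201 CPM in control spleen, 7.44, 7.46, 8.26 and 7.97 in Vps34-deficient spleen, 7.02 and 8.89 in control lung and 7.797 and 6.77 in Vps34-deficient lung, and its Vps34-deficient spleen values lay within 1 CPM of each other. GATA3 is a factor of type 2 immunity that also serves tissue Tregs. Over the whole list the median log2 ratio was -0.03 in spleen and -0.18 in lung, against 0.04 and 0.03 over all peaks. Resting and central Treg genes had 3 members among 741 peaks (0.405%), at Bach2, Ccr7 and Dapl1, and 9 of their peaks opened in both tissues (0.738% of all peaks did).

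Signalling genes supplied a few members each. NF-kB genes had 2 members among 188 peaks, both at Nfkb1, which encodes the p105 and p50 proteins. The Nfkb1 peak shown above (chr3:135640184-135640637) held 5.88 and 6.06 CPM in control spleen, 11.2, 9.17, 10.2 and 10.6 in Vps34-deficient spleen, 12.01 and 20.5 in control lung and 10.2 and 7.62 in Vps34-deficient lung. In lung the order of genotypes was the reverse of spleen, and lung control 2 was far above every other library. Interferon response genes had 1 member among 96 peaks. T cell receptor signalling genes had 4 members among 576 peaks, at Nfatc1, Nfatc2, Nr4a3 and Rasgrp1. At the peak 30.2 kb upstream of Nfatc1, which encodes a calcium-regulated factor, the values were 2.59 and 2.76 CPM in control spleen, 8.07, 6.97, 4.51 and 6.46 in Vps34-deficient spleen, 14.9 and 7.48 in control lung and 11.1 and 12.7 in Vps34-deficient lung, more open in lung than in spleen by 1.31 on the log2 scale (edgeR adjusted p = 1.31e-05).

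Homing and chemokine receptor genes had 3 members among 273 peaks, 2 of them at Gpr183, an oxysterol receptor that positions lymphocytes in spleen. The one 5.37 kb from the start held 6.06 and 7.03 CPM in control spleen, 13.2, 10.1, 14.2 and 11.1 in Vps34-deficient spleen, 7.66 and 6.92 in control lung and 9.75 and 6.35 in Vps34-deficient lung. The peak at Itgb8, the integrin chain with which Tregs activate TGF-beta, held 4.37 and 3.86 CPM in control spleen, 6.96, 8.56, 7.85 and 6.89 in Vps34-deficient spleen, 6.804 and 3.39 in control lung and 4.55 and 4.87 in Vps34-deficient lung. Class III PI3K, autophagy and endolysosome genes, the pathway of Vps34 itself, had 2 members among 176 peaks, at Ambra1 and Pikfyve. Phosphoinositide genes had 1 among 317, at Pik3r1. T helper lineage genes had 3 members among 321 peaks (Bcl6 and Stat4), cell cycle genes 3 among 285 (Ccnd3 and Mycn), survival genes 1 among 161 (Bcl2l11) and AP-1 family genes 1 among 130 (Batf3). Marker genes of B cells, myeloid cells, erythroid cells and CD8 or NK cells had 0 members among 59, 53, 32 and 53 peaks. The lung epithelium and endothelium list had 2 among 92, at Cldn18 and Pecam1, and the intronic Pecam1 peak held 8.56 and 8.13 CPM in control spleen, 12.1, 14.1, 12.3 and 15.1 in Vps34-deficient spleen, 18.5 and 18.2 in control lung and 17.4 and 15.03 in Vps34-deficient lung.

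Only Tle3, which encodes a Groucho-family co-repressor that pairs with TCF and RUNX factors, was nearest to 4 or more members, of 500 nearest genes. Its 5 members lay between 185.1 kb upstream and 81.5 kb downstream of its start. Their share of all peaks nearest to Tle3 is not given here. A gene with more nearest peaks has more chances to hold members, so the 5 are not read as a concentration. The farthest upstream (chr9:61187067-61187465) held 1.604 and 2.204 CPM in control spleen, 3.62, 2.69, 3.25 and 2.87 in Vps34-deficient spleen, 1.06 and 1.27 in control lung and 0.6497 and 0.423 in Vps34-deficient lung. At the next (chr9:61215580-61216583) the values were 4.46 and 5.65 CPM in control spleen, 6.68, 8.56, 7.76 and 7.61 in Vps34-deficient spleen, 2.98 and 2.68 in control lung and 4.06 and 2.33 in Vps34-deficient lung. The third (chr9:61222165-61222829) held 3.74 and 2.62 CPM in control spleen, 6.68, 5.87, 4.78 and 8.47 in Vps34-deficient spleen, 3.83 and 2.12 in control lung and 3.41 and 2.96 in Vps34-deficient lung. At the first 2, every lung library was below both spleen controls, and at the third the lung libraries overlapped them. The fourth (chr9:61235910-61236588) held 3.12 and 3.17 CPM in control spleen, 6.05, 3.91, 6.499 and 5.89 in Vps34-deficient spleen, 3.62 and 2.26 in control lung and 4.22 and 2.12 in Vps34-deficient lung. Downstream of the gene (chr9:61456784-61457219) the values were 2.59 and 1.52 CPM in control spleen, 4.17, 2.94, 3.701 and 3.45 in Vps34-deficient spleen, 1.28 and 0.847 in control lung and 0.487 and 0.847 in Vps34-deficient lung. The lung minus spleen log2 difference ran from -1.78 to -0.53 over the 5, in the direction that the choice of members favours.

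Membership often turned on 1 lung control. Of 38 members described so far, 9 no longer met the criteria without lung control 2, namely those of Gramd1b, Ermn, Ccr7, Hsd11b1, Zbtb1, Ptprk, Ugt1a10 and both of Il2ra, where the lung ratio was 1.19 to 6.42 against lung control 1 alone. Without lung control 1, 12 did not, namely those of Dnajc5b, Gm11060, Otogl, Nup160, Gpr183, Itgb8 and Nfatc1, the upstream Nrp1 peak, the intronic Ikzf2 peak and 3 of the 5 at Tle3, where the lung ratio was 1.16 to 1.90 against lung control 2 alone. The other 17 met them with either control left out.

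The tissues were then compared at the members, a contrast the selection did not use as such, although all 10 libraries that enter it also picked the members. Its spleen side holds 4 Vps34-deficient and 2 control libraries, and its lung side 2 of each. The spleen increase that chose the members therefore enters the difference between tissues. With libraries of all groups weighted alike, edgeR called 134 members (25.05%) higher in lung, against 18.5% of all tested peaks, and 108 members (20.2%) lower in lung, against 7.69%. Among the more open peaks with a spleen ratio near 1 the shares were 2.62% and 7.62%, and among those opening in both tissues 48.9% and 17.9%. The mean of the 4 lung libraries exceeded the Vps34-deficient spleen mean at 172 members (32.1%, against 45.7% of all peaks), fell below the control spleen mean at 154 (28.8%, against 54.2%) and lay between them at 209 (39.1%, against 9.76%). Members had to reach 3 CPM in Vps34-deficient spleen but not in lung, so a share lower in lung above that of all peaks is built into the choice. A member also had to have a spleen ratio of at least 1.5, which widens the interval between its spleen means.

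**Figure D3:**
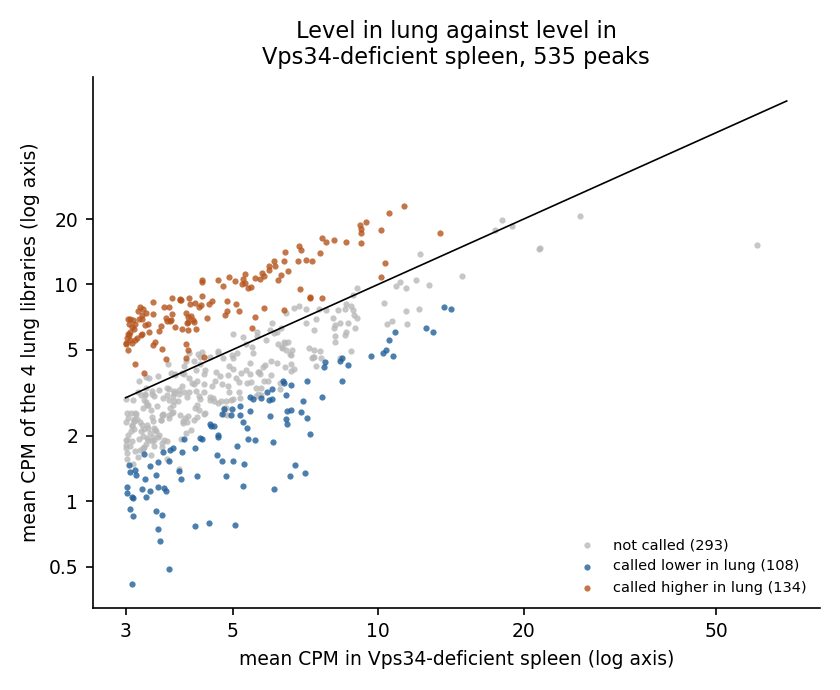
Mean CPM of the 4 lung libraries against mean CPM of Vps34-deficient spleen for the 535 peaks, on log axes, with a line at equality and colours for the edgeR call between tissues. The 134 peaks called higher in lung all lie above the line, where 38 of the peaks not called also lie, and the 108 called lower lie below it.

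Most members higher in lung were narrow. Their median width was 211 bp, and 102 of the 134 were at most 220 bp wide, against 2 of the 108 lower in lung (median width 444.5 bp) and 9 of the 293 not called. Other peaks called higher in lung had the same median width of 211 bp, and 70.2% of them were at most 220 bp wide. Lung control 2 was the lowest lung library at 107 of these 134 members (79.9%, against 64.7% of other peaks called higher in lung and 32.2% of all peaks), where the medians were 9.46 and 5.86 CPM in lung controls and 8.12 and 8.04 CPM in Vps34-deficient lung. Their median GC content was 44.6%. Narrow peaks, low GC content and a low lung control 2 came together at these members and at other peaks called higher in lung, whose GC content was 45.02%. The members lower in lung had a GC content of 45.3%, those not called 49.02% and all peaks 48.7%. Low GC content was thus shared by both called classes of members and not by those not called. Other peaks called lower in lung stood at 47.6%. The part of width, GC content and lung control 2 in these calls was not tested. The number called higher in lung was 122 without lung control 2 and 137 with an offset for GC content.

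Rora, the gene of a nuclear receptor of tissue Tregs, was nearest to 1 of the narrow members, which lay 291.3 kb upstream with 1.16 and 1.93 CPM in control spleen, 3.48, 3.55, 2.44 and 3.59 in Vps34-deficient spleen, 8.72 and 5.93 in control lung and 7.96 and 8.26 in Vps34-deficient lung. All 4 lung libraries exceeded every spleen library, by 1.67 on the log2 scale (edgeR adjusted p = 1.26e-06). At the other end, an intronic peak of Cdh13, which encodes a cadherin without a membrane-spanning segment, held 2.14 and 1.79 CPM in control spleen, 2.64, 2.57, 3.57 and 3.59 in Vps34-deficient spleen, 0.213 and 0.706 in control lung and 0.325 and 0.423 in Vps34-deficient lung. It was lower in lung by 2.55 on the log2 scale, with every lung library below every spleen library. These were chosen after their values were seen, Rora as a listed gene among the 4 members highest in lung and Cdh13 as the lowest. Further listed genes with a member lower in lung were Bach2, Bhlhe40, Gpr183 and Nrp1.

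In sequence, the NF-kB consensus was the one whose share differed most, in percentage points, between the members and all peaks. Counted on both strands over whole peaks, GGNNTTTCC was present in 124 members (23.2%), in 9.32% of all peaks on chromosomes 1 to 19, 15.5% of those opening in both tissues and 12.4% of the more open peaks with a spleen ratio near 1. In the central 200 bases, a window of fixed length, 85 members (15.9%) held it, against 5.05%, 8.61% and 4.64%. Of the 141 matches in members, 48 overlapped a match to the NFAT consensus TGGAAA. AP-1 (TGANTCA) was found in the centre of 85 members (15.9%), against 9.94% of all peaks, 10.6% and 7.49%, and 10 members held both consensus sequences there. NFAT stood at 23.6% against 16.45% of all peaks, STAT (TTCNNNGAA) at 8.97% against 6.22%, and the TCF-LEF consensus CTTTGAA at 8.97% against 5.32% and 9.04% of those opening in both tissues.

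The rarer MEF2 consensus TAAAAATAG was in the centre of 8 members (1.495%) and 0.424% of all peaks. Sequences typical of promoters and insulators were scarce in the members, whose promoter share was also low. ETS (CCGGAAG) was in the centre of 0.748% of members and 3.32% of all peaks, KLF-SP (GGGCGGG) in 5.61% and 8.997%, and CTCF (CNAGGGGGC) in 0.935% and 2.28%. RUNX (TGTGGTT) stood at 8.22% in members and 8.24% in all peaks, the forkhead consensus TGTTTAC at 3.55% and 2.82%, and IRF (GAAANNGAA) at 9.35% and 7.64%, the last being 13.5% in peaks opening in both tissues. A consensus match describes letters and is not a measured binding event, and 23 consensus sequences were counted in all.

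**Figure D4:**
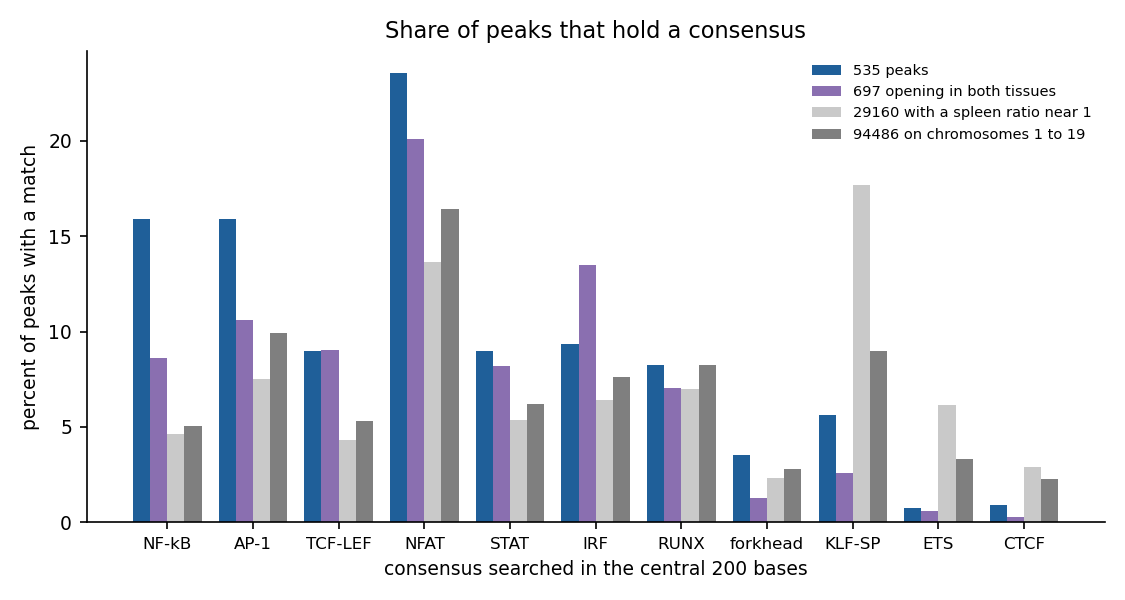
Percent of peaks with a match to 11 of the 23 consensus sequences in the central 200 bases, for the 535 members, the 697 peaks opening in both tissues, the 29160 peaks with a spleen ratio near 1 and all 94486 peaks on chromosomes 1 to 19. NF-kB stands at 15.9% in members (7.78% when they are chosen without lung control 2) and 5.05% in all peaks.

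Matches lay at the middle of the peaks. In bins of 50 bases, the NF-kB consensus occurred in 6.17% and 5.42% of members in the bins on either side of the centre, against 1.48% and 1.52% of all peaks, and in bins centred 425 and 475 bases away in 0.187% to 1.12% of members. The share was higher than in other peaks in each width class. It was 7.78% against 4.43% in peaks under 300 bp, 20.6% against 5.74% from 300 bp to under 500 bp and 17.9% against 5.02% at 500 bp or more. By GC content it was 13.9% against 4.58% under 45%, 20.5% against 5.61% at 45% to 55%, and 5.26% against 4.21% at 55% or more, the last from 4 of 76 members. Away from promoters the values were 16.4% and 5.18%. Of 90 matches in the central windows of members, 15 lay mostly in repeat-masked bases.

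**Figure D5:**
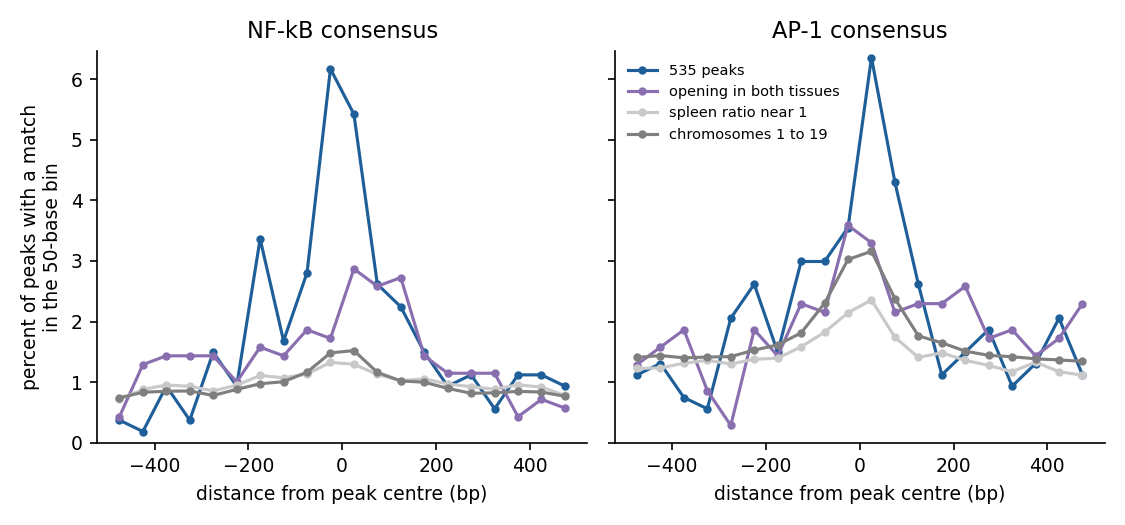
Percent of peaks with an NF-kB (left) or AP-1 (right) match in each 50-base bin, by distance of the bin from the peak centre, for members and the 3 comparison sets. The NF-kB curve of members reaches 6.17% beside the centre, where all peaks stand at 1.48%.

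This share depended on which lung control defined the absence of opening in lung. Without lung control 2, the criteria gave 1259 peaks, 438 of them among the 535, and 11.04% of the 1259 held the NF-kB consensus over the whole peak and 7.78% in the centre, where AP-1 stood at 11.8%. Without lung control 1 they gave 460 peaks with 30.2% over the whole peak and 22.0% in the centre. The TCF-LEF, MEF2 and NFAT shares in the centre were 5.24%, 0.556% and 22.5% without lung control 2 and 8.70%, 1.30% and 23.5% without lung control 1. By width class, from narrow to wide, the central NF-kB share was 4.80%, 16.3% and 12.2% without lung control 2 and 17.6%, 24.9% and 19.8% without lung control 1. By GC class, from low to high, it was 7.45%, 9.17% and 2.68%, and 24.2%, 25.5% and 7.5%. The 97 members lost without lung control 2 held the consensus over the whole peak in 39.2% of cases and in the centre in 32.0%. For the 201 lost without lung control 1 these shares were 8.96% and 5.47%. Members with a central match had medians of 3.83 CPM in lung control 1 and 4.80 CPM in lung control 2, with the latter higher at 57 of 85 (67.1%), against 177 of 450 members without a match (39.3%). Over all peaks with a central match, lung control 2 was the higher at 55.1%, against 47.3% of those without. At the 237 members kept with either lung control left out, 28.7% held the consensus over the whole peak and 18.1% in the centre. At the 70 members kept whichever of the 10 libraries was left out, the values were 37.1% and 21.4%. These last sets were formed after seeing the data. In spleen alone, where no lung library enters, 14.6% of the 2623 peaks held it over the whole peak and 9.72% in the centre.

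NF-kB matches were spread unevenly over the tissue classes. The consensus was in the centre of 20.1% of the 293 members not called between tissues, 15.7% of the 108 lower in lung and 6.72% of the 134 higher in lung, against 5.09%, 5.22% and 4.46% of other peaks of the same calls. AP-1 stood at 16.7%, 14.8% and 14.9%, so it did not follow this order. Width moved with these classes, with medians of 410 bp, 444.5 bp and 211 bp, and members under 300 bp of any class held the NF-kB consensus in 7.78% of cases. The part of width was not tested. The order of the classes did not hold without lung control 1, where the shares were 23.3%, 16.7% and 23.5% (8 of 34 higher in lung), and without lung control 2 they were 14.9%, 15.2% and 4.34%. Members with a central NF-kB match were also somewhat more open, with medians of 5.29, 5.14, 4.78 and 6.32 CPM in Vps34-deficient spleen against 4.59, 4.28, 4.06 and 4.56 CPM without a match, and 3.21 and 3.03 CPM against 2.59 and 2.48 CPM in control spleen.

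By position, 266 members (49.7%) were intronic, 216 (40.4%) intergenic and 12 (2.24%) centred on a coding exon, against 49.2%, 36.2% and 3.69% of all peaks. The median distance to a protein-coding start was 23680 bp, against 17560 bp in all peaks, 5612 bp in the more open peaks with a spleen ratio near 1 and 37480 bp in peaks opening in both tissues. Members were 381 bp wide at the median (328 bp in all peaks) with a GC content of 46.9% (48.7%). Each of chromosomes 1 to 19 held members, from 0.378% of peaks on chromosome 7 to 0.802% on chromosome 9. They were mostly solitary, since 6 had another member within 5 kb and 40 within 50 kb. Other peaks within 5 kb of a member numbered 584, with a median log2 spleen ratio of 0.08 against 0.04 elsewhere and a ratio above 0 at 65.1% against 55.8%. Within 50 kb these values were 0.04 and 56.7%, so that the closest neighbours were more often higher without Vps34 than peaks elsewhere, and those within 50 kb little more often.

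Chromosome Y signal differed between libraries of the same group and was checked at the members. Between the 5 libraries with high and the 5 with low signal, edgeR called 0 members, against 0.130% of all tested peaks. Tested peaks were not limited to the chromosomes of the members, and the libraries were split by chromosome Y signal itself. Shares of all tested peaks are therefore not a like comparison for the members. The shares called were 0.0034% of the more open peaks with a spleen ratio near 1 and 0.1435% of those opening in both tissues. At an unadjusted p under 0.05 there were 29 members (5.42%, against 5.365% of all peaks), and DESeq2 called 0. The smallest adjusted p among members was 0.867.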

How the data were processed

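The members, gene lists and consensus sequences were chosen with earlier results of these data known. Per the labels and methods, the authors trimmed 100 bp paired reads, aligned with BWA, dropped Picard 1.65 duplicates, shifted ends for Tn5, kept nucleosome-free fragments and called peaks per sample with MACS2 2.1.0.20150603. The Picard version is that of the labels, and the methods name a later one. The deposited counts are raw reads per merged peak, with both mates counted, so they overstate independent fragments. The methods name an older build, but 45.7% of 20722 gene starts lay in a peak on GRCm38, which the labels list, against 2.86% and 2.93% after shifts.

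Counts were scaled to CPM of library totals. All 10 libraries in 4 groups entered 1 model in edgeR 4.0.16, R 4.3.3 (TMM, quasi-likelihood test, 97109 peaks, common variation of 17.8%), tested on simulated data. Calls needed an adjusted p under 0.05 and a log2 fold change over 0.5. Box and neighbour values used a pseudocount of 0.5 CPM. Named peaks were the 8 with the widest spleen separation at a control mean of at least 1 CPM, the 6 most open, the 6 most open promoters, the most open member of up to 12 listed genes, those of genes with 4 or more members, and those beside each threshold. Some of these are not reported here. Alternatives were other scaling, thresholds, DESeq2 1.42.0, halved counts, a GC offset, a replicate block, 1 tissue alone and leaving out each library. The Treg identity count and the NF-kB share under them were added after seeing the data. Replicates differed by more than counting noise (2.75 to 5.19 for chi-square over its degrees of freedom, and 1.38 to 2.69 with halved counts, since both mates were counted).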

Additional observations from a re-analysis of the deposited data

Results flagged for a closer look

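At the Ccr7 coding-exon peak, replicate 4 of Vps34-deficient spleen stood far above the other 3 libraries of its group, at 203.1 CPM against 12.8 to 14.3 CPM. At the Vipr2 intronic peak, replicate 3 of Vps34-deficient spleen stood apart as the low library, at 16.25 CPM against 23.0 to 23.8 CPM. By the same criterion, which chance meets in about 1 of 20 groups, a library stood apart at 30 of the 535 members (5.61%) and at 5.38% of all peaks of at least 3 CPM on chromosomes 1 to 19.

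At 7 of the members described, all Vps34-deficient libraries lay above the controls in spleen, as the selection required, and both lay below both controls in lung. The lung order alone, whatever the order in spleen, was found at 13.3% of members and 22.2% of all peaks on chromosomes 1 to 19. The lung log2 fold changes were -1.12 at the Tle3 peak farthest upstream, -0.90 at Malsu1, -0.89 at Nfkb1, -0.74 at Lrrc32, -0.65 at Bhlhe40, -0.42 at Vipr2 and -0.20 at Pecam1. The interaction of tissue and genotype was called at 0 of the 535 members by edgeR (smallest adjusted p of 0.201), at 222 with an unadjusted p under 0.05 (41.5%, against 7.27% of all peaks, as the selection builds in) and at 2 by DESeq2. Lung control 2 was the higher lung control at 6 of the 7, with Pecam1 the exception.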

How the results depend on the processing

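The number of members followed the thresholds and the controls. It was 85 with a spleen ratio of 2, 281 with a lung limit of 1 and 221 with a level of 5 CPM. It ran from 460 to 1259 when each library was left out in turn, at 1259 without lung control 2, 1194 without spleen control 1 and 808 without spleen control 2. Other scaling gave 464 to 569. With a GC offset it was 502, of which 426 were among the 535. The count called higher in spleen was 60 with DESeq2, 126 with the spleen libraries alone and 0 to 94 when each library was left out (0 without spleen control 2, 2 without spleen control 1, 94 without lung control 2, 88 without lung control 1, 12, 10 and 11 without Vps34-deficient replicates 1, 2 and 4). The count called lower in lung was 1 with DESeq2 and with halved counts, 0 with the lung libraries alone and 0 to 7 when each library was left out (7 without lung control 1, 0 without lung control 2 or spleen control 2). The interaction called 2 members with DESeq2 and 0 to 2 when each library was left out, with 2 without lung control 1. Members called higher in lung than spleen ran from 120 to 148 over all alternatives and those called lower from 76 to 133. The NF-kB share was 15.9% in the central 200 bases in place of 23.2%, and 11.04% to 30.2% when each library was left out. The sign of the spleen fold changes is fixed by the selection. The causes of these shifts were not tested.

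Replicate numbers are shared between groups in the labels, but samples of the same number did not deviate together (correlations of -0.09 to 0.11), so they were not treated as pairs. Within each genotype, however, spleen and lung libraries of the same number had the same chromosome Y signal, high or low. Whether they came from the same animal is not given, and the fits treat them as independent. The replicate block joined libraries of the same number across genotypes, where this signal differed, so it is not a block by animal. With the replicate block, 3 members were called higher in spleen, 0 lower in lung, 124 higher in lung than spleen and 76 lower. The limits are 2 libraries in each control group and in Vps34-deficient lung, and a median of 32 to 94 counts for members, at which single peaks carry wide errors.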
